A study of Homo sapiens with 2 samples.

Results

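The genes described here encode the nuclear subunits of the mitochondrial respiratory chain and of ATP synthase in A427, a cell line from human lung cancer of the non-small cell kind. Its cells grow on the dish and also come free of it and form spheres in the medium. They were chosen by symbol: genes beginning with NDUFA, NDUFB, NDUFC, NDUFS, NDUFV, UQCR or ATP5, or with COX4 to COX8, and the 4 SDH subunit genes, without NDUFAF assembly factors, pseudogenes and hyphenated symbols. This gave 87 of the 23686 symbols in the tables: 39 of complex I, 4 of complex II, 9 of complex III, 17 of complex IV and 18 of complex V. The line is labelled as wild type in genotype, while the title of the series calls it CTNNB1-mutated. Adherent cells and floating, sphere-forming cells were cultured in RPMI 1640 with 5% serum and collected separately, and 1 poly(A) library was sequenced from each. Reads assigned to genes numbered 26384670 in the adherent and 27148842 in the floating library.

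Complexes I to IV pass electrons from NADH and succinate to oxygen, and complexes I, III and IV pump protons across the inner mitochondrial membrane as they do so. ATP synthase, here complex V, lets the protons back and makes ATP. All but complex II are built from nuclear-encoded subunits together with subunits encoded by mitochondrial DNA. Each has a few catalytic subunits and, apart from complex II, many small accessory ones, so most of these genes have short transcripts. Subunits encoded by mitochondrial DNA are outside the genes described here.

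Because there was 1 library per growth form, the genes could not be tested and p-values are absent throughout. Each fold is a ratio of scaled read counts, floating over adherent, and its 95% interval is an exact binomial one that covers counting error and not the spread between cultures. A gene was compared if it reached 1 read per 1000000 (CPM) in at least one library, which 13131 genes and 79 of the 87 members did. A member is called higher or lower where its ratio is at least 1.2-fold and its interval excludes no difference. The compared members had between 98 and 35571 reads in a library, with medians of 1605 in the adherent and 1856 in the floating one.

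Markers of lung epithelium gave a mixed picture. EPCAM (615 and 582 TPM in adherent and floating cells), KRT8 (327 and 581 TPM) and KRT18 (342 and 613 TPM) were abundant, TPM being transcripts per 1000000 scaled by length. The adhesion gene CDH1 was at 18.9 and 13.9 TPM and was called lower in the floating library (log2 -0.39, -0.52 to -0.26). The lung markers NKX2-1 (3 and 13 reads) and NAPSA (29 and 21 reads) and the keratins KRT7 (4 and 3 reads) and KRT19 (8 and 22 reads) were barely detected, SFTPB had 0 and 1 read, and SFTPC had 0 reads in both libraries. Summed over 10 epithelial markers the level was 1306 TPM (adherent) and 1793 TPM (floating), with the excess in KRT8 and KRT18, and of the 5 compared ones 2 had ratios above 0. The sums for 8 fibroblast markers were 36.8 and 25.7 TPM, for 6 leukocyte markers 19.8 and 33.6 TPM, for 5 endothelial markers 0.17 and 0.47 TPM, and for 4 red cell markers 0 and 0.18 TPM. The compared fibroblast markers COL1A1 (999 and 613 reads, log2 -0.75) and FAP (709 and 583 reads, -0.33) were called lower in the floating library. The endothelial marker VWF was called higher on few reads (14 and 44). In the leukocyte list CD68 was higher in the floating library (16.9 and 31.5 TPM), while PTPRC was lower (2.84 and 1.95 TPM). CDH5, CD3E, LYZ, HBA1, HBA2 and ALAS2 had 0 reads in both. The part of these shifts in the ratios below was not tested.

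Most subunit genes had slightly more reads in the floating library. The median ratio of the 79 compared members was 1.12-fold (log2 0.16), against a median log2 ratio of -0.005 over all compared genes, and 70 members lay above 0, against 49.1% of all genes. Counting intervals lay above no difference for 55 members, where 25.5% of all genes had such an interval, and below it for 3, where 25.6% had one. By the 1.2-fold rule 15 of 79 members were higher, against 12.1% of all genes, and 0 were lower, against 12.5%. On deposited TPM the calls used the fold alone, with no counting interval, and the median log2 ratio of all genes was -0.047. By that rule 8 members passed 1.2-fold upward and 0 downward, where 11.5% of all genes were higher and 18.9% lower. At 1.5-fold no member was called in either direction, while 3.24% of all genes were called higher and 2.9% lower, and at 2-fold these shares were 1.28% and 0.754%. The members were read more deeply than most genes, with a median interval half-width of 0.10 on the log2 scale against 0.14 over all genes, so their intervals exclude no difference more readily.

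**Figure D1:**
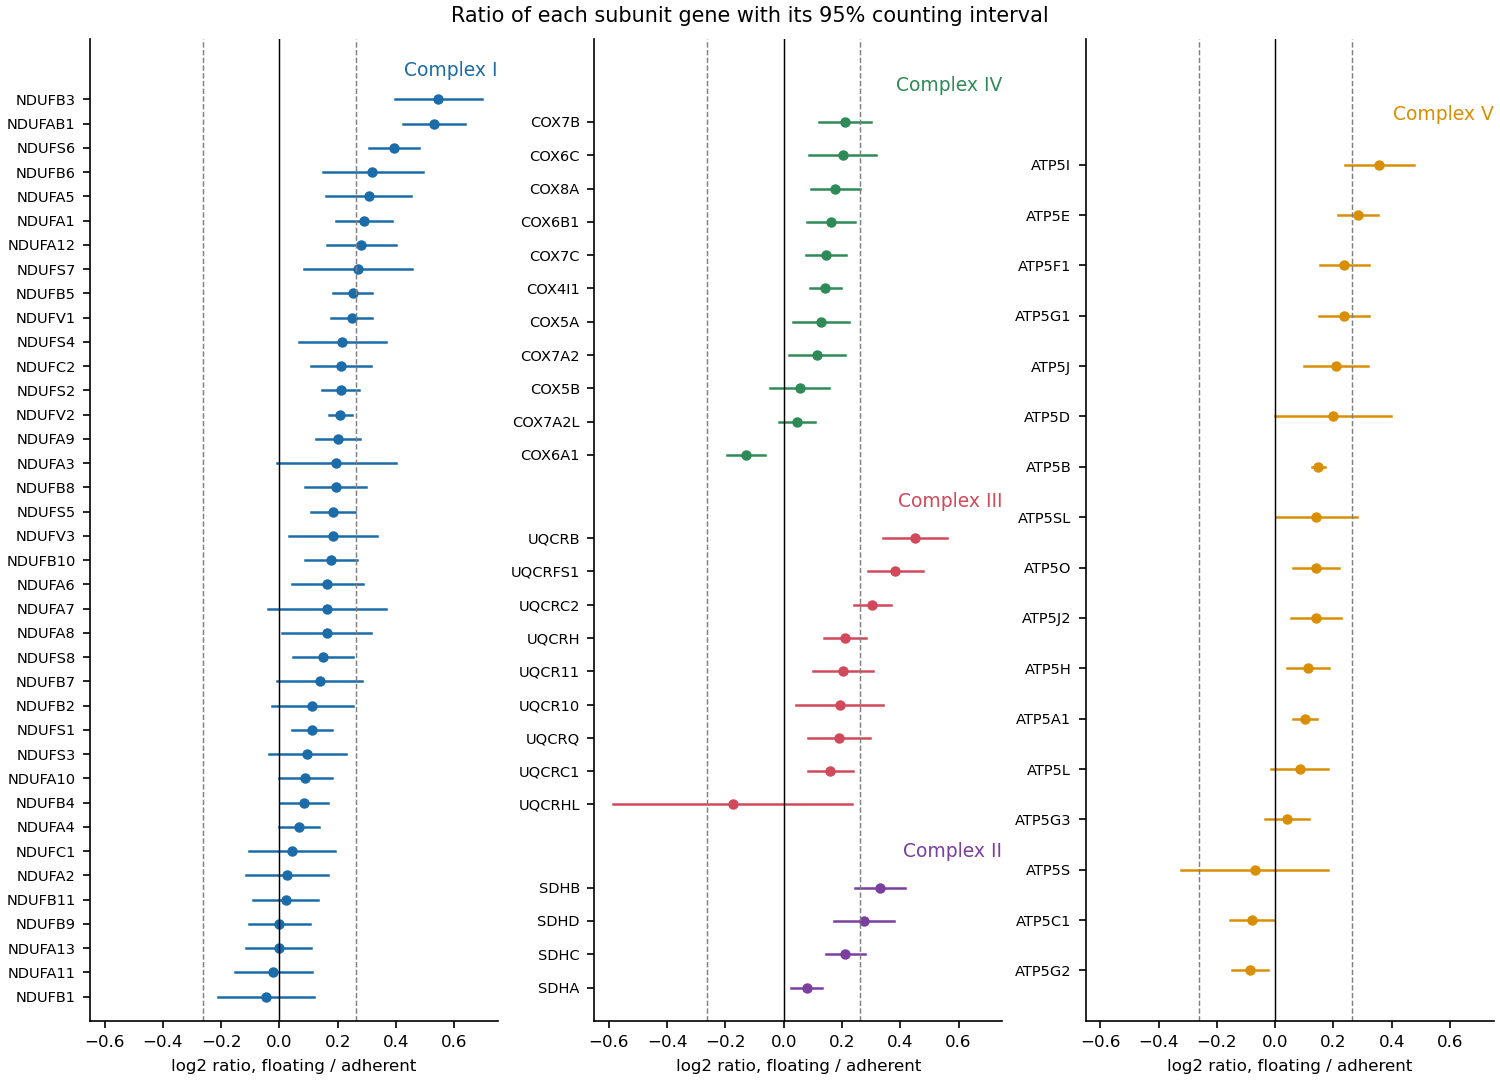
Log2 ratio of floating over adherent (x axis) of each of the 79 compared members, ordered within complexes I to V. Points are ratios of TMM-scaled counts, horizontal lines are 95% counting intervals, the solid line marks no difference and dashed lines mark 1.2-fold; 15 members were called higher and 0 lower.

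Complex by complex, the medians as measured lay close together. The median log2 ratio was 0.24 for complex II (4 genes), 0.20 for complex III (9 genes), 0.18 for complex I (38 genes), 0.14 for complex IV (11 genes) and 0.14 for complex V (17 genes). Members called higher were 2 of 4 in complex II, 3 of 9 in complex III and 8 of 38 in complex I. They were 2 of 17 in complex V and 0 of 11 in complex IV, against 12.1% of all genes. Complex V, at 11.8%, was near that share. Complex I, at 21.1%, was near the 22.0% of other genes called in the shortest of the length bands described below. The SD of the log2 ratio among the members of a complex was 0.13 in complex I, 0.11 in II, 0.18 in III, 0.10 in IV and 0.13 in V. As measured, the medians of the complexes thus spanned a range smaller than the scatter inside complexes I, III and V. With the length trend described below removed, the medians lay further apart, from -0.009 in complex IV to 0.21 in complex II. No difference between complexes was tested.

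The promoters of 4 members are shown as examples and were not chosen by rank alone. NDUFB3 was the highest of all members, and NDUFS6 and SDHB were among the high members of complexes I and II. COX6A1 was the member of complex IV with an interval below no difference. The sequences are the 250 bases before the RefSeq gene start on GRCh38.p14, written 5′ to 3′ on the strand of the gene, at chr2:201071751-201072000 (plus strand) for NDUFB3, chr5:1801157-1801406 (plus) for NDUFS6, chr1:17054033-17054282 (minus) for SDHB and chr12:120437863-120438112 (plus) for COX6A1. The count tables were made on hg19 and carry no coordinates. Capitals mark matches on either strand to GCATGCGC, the core recognised by nuclear respiratory factor NRF1, and to CCGGAAG, a core bound by ETS factors such as GABPA. Both factors are known regulators of respiratory genes.
NDUFB3: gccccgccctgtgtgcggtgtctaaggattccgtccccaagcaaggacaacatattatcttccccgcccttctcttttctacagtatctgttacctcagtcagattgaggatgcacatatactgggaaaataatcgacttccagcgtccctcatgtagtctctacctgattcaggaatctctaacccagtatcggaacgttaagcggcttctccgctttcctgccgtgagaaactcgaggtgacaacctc
NDUFS6: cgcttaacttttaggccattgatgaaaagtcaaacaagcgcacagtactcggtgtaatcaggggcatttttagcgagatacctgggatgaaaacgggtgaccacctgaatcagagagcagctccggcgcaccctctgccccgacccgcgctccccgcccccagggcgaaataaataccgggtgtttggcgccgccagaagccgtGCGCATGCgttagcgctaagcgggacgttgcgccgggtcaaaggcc
SDHB: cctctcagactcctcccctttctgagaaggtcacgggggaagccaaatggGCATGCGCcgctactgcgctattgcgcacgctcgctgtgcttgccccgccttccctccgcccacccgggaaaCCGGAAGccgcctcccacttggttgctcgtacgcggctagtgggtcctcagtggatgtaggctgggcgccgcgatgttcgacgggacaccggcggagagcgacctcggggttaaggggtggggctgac
COX6A1: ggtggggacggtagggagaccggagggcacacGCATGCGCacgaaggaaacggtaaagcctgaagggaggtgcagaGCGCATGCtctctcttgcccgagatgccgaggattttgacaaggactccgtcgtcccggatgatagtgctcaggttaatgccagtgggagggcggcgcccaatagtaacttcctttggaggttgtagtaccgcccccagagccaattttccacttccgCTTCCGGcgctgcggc
NDUFB3 held neither set of letters in this window, NDUFS6 held the NRF1 core, and SDHB and COX6A1 held both. NDUFAB1 (log2 0.53) and UQCRFS1 (0.38), whose promoters are not shown, held neither. Of the 14 members called higher whose promoters were found, 8 held neither core, against 79.9% of compared genes with a promoter. Both cores stood in the promoters of 5 members. Of these, SDHB was a high member and COX6A1 the lowest of complex IV. The others, SDHD (log2 0.28), ATP5J (0.21) and COX5B (0.05), lay between them.

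Promoters were found for 65 of the 79 compared members. The NRF1 core stood in 12 of them (18.5%), against 4.91% of the promoters of 10397 compared genes and 2.81% of 27305 promoters of the same length. The ETS core stood in 16 (24.6%), against 16.2% and 8.82%, and 42 held neither core. The median log2 ratio was 0.19 for the 12 members with the NRF1 core and 0.16 for the 53 without it, and 0.17 for the 16 with the ETS core and 0.16 for the 49 without it. Called higher were 5 of the 12 members with the NRF1 core and 9 of the 53 without it, against 12.1% of all compared genes. For the ETS core they were 3 of the 16 with it and 11 of the 49 without it. The medians thus lay close together for both cores. The share called higher was larger with the NRF1 core, but this rests on few genes and was not tested. Shares called among all compared genes with and without a core were not counted. A match describes letters in a window and is not evidence of a bound site.

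In complex I, NADH is oxidised and its electrons are passed to ubiquinone by 7 conserved core subunits encoded in the nucleus, surrounded by accessory subunits. All 7 core genes lay above 0, with a median log2 ratio of 0.21, and 6 of them had intervals above no difference. NDUFV2, which carries an iron-sulfur cluster of the NADH-binding module, was the most abundant gene of the complex, at 1092 TPM (adherent) and 1228 TPM (floating), and 1.16-fold higher in the floating library (interval 1.13 to 1.19). NDUFV1, which binds NADH and FMN, was at 171 and 197 TPM and 1.19-fold higher (1.13 to 1.25). NDUFS7, an iron-sulfur subunit next to the ubiquinone site, was at 59.7 and 70.1 TPM with 434 and 541 reads, and was the core gene called higher (log2 0.27, 0.08 to 0.45). The largest nuclear subunit, NDUFS1, was at 78.3 and 82.0 TPM and 1.08-fold higher (1.03 to 1.13). The core genes ran from log2 0.09 to 0.27, with an SD of 0.07.

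The accessory genes of complex I spread more widely, from log2 -0.05 to 0.54 with a median of 0.18 and an SD of 0.14. These were 31 genes, NDUFA4 among them. Their median adherent reads were 1042, against 3055 for the core genes, so counting error adds more to their spread. NDUFB3, a small subunit of the membrane arm, had 611 reads in adherent and 922 in floating cells (88.9 and 126 TPM), and at 1.46-fold (1.32 to 1.62) its ratio was the highest of all members. NDUFAB1, the mitochondrial acyl carrier protein, which also serves lipoic acid and fatty acid synthesis, had 1186 and 1772 reads (206 and 289 TPM) and was 1.44-fold higher (1.34 to 1.56). NDUFS6, a zinc-binding subunit of the NADH module, had 1961 and 2665 reads (459 and 589 TPM) and was 1.31-fold higher (1.24 to 1.39). These 3 genes were followed by NDUFB6, NDUFA5, NDUFA1 and NDUFA12, which were between 1.22-fold and 1.25-fold higher. NDUFS5, an intermembrane-space accessory subunit and the second most abundant gene of the complex, was at 581 and 644 TPM, 1.14-fold higher (1.08 to 1.196).

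By symbol series, the median log2 ratio was 0.21 for the 3 NDUFV genes, 0.20 for the 8 NDUFS genes, 0.16 for the 14 compared NDUFA genes, 0.14 for the 11 NDUFB genes and 0.13 for the 2 NDUFC genes. Intervals lay above no difference for 3 of 3 NDUFV and 7 of 8 NDUFS genes, the series that hold the core subunits. They did so for 7 of 14 NDUFA and 6 of 11 NDUFB genes, the latter all in the membrane arm, against 25.5% of all genes. More reads give narrower intervals, and median adherent reads were 3055 for NDUFV and 1695 for NDUFS genes, against 1035 for NDUFA and 1262 for NDUFB genes, so these counts are not compared between series.

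At the low end of complex I the reads of both libraries were nearly equal. NDUFB1, a small membrane-arm subunit, had 603 and 604 reads (227 and 216 TPM) and a log2 ratio of -0.05 (-0.21 to 0.12). NDUFA11, a membrane subunit, had 912 and 930 reads with a ratio of -0.02 (-0.15 to 0.11), and NDUFA13, also known as GRIM-19, had 1291 and 1333 reads with a ratio of -0.003 (-0.11 to 0.11). The intervals of all 3 included no difference, and no member of complex I had an interval below it. NDUFA4, now counted with complex IV despite its name, had 3318 and 3599 reads and a log2 ratio of 0.07 (-0.0002 to 0.14). Its paralogue NDUFA4L2, known as a hypoxia-induced gene, had 9 and 8 reads and was under the count minimum. NDUFC2 shares reads with the read-through symbol NDUFC2-KCTD14, and its ratio was 1.16-fold alone and 1.12-fold when summed with it.

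In complex II, the succinate dehydrogenase of the citric acid cycle and the complex with no mitochondrially encoded subunit, all 4 genes had intervals above no difference. SDHB, the iron-sulfur subunit, had 1976 reads in adherent and 2569 in floating cells (168 and 205 TPM) and was 1.26-fold higher (1.18 to 1.33). The membrane anchors SDHD (1423 and 1782 reads) and SDHC (3208 and 3844 reads) were 1.21-fold (1.13 to 1.299) and 1.16-fold (1.105 to 1.21) higher. SDHA, the flavoprotein that oxidises succinate, was the nearest to equal, with 5395 and 5897 reads (197 and 201 TPM) and a ratio of 1.06-fold (1.02 to 1.097). The counting intervals of SDHA and SDHB do not overlap, but they leave out the spread between cultures. A difference between the catalytic partners was not tested. SDHA shares reads with its pseudogenes SDHAP1, SDHAP2 and SDHAP3, and summed with them its ratio was 1.04-fold.

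In complex III, which passes electrons from ubiquinol to cytochrome c, 8 of 9 genes had intervals above no difference. UQCRB, a small subunit near the ubiquinone site, had 1158 reads in adherent and 1637 in floating cells and was 1.37-fold higher (1.27 to 1.47), and summed with its pseudogene UQCRBP1 the ratio was 1.36-fold. UQCRFS1, the Rieske iron-sulfur protein, which takes the electron from ubiquinol, had 1605 and 2165 reads (126 and 159 TPM) and was 1.304-fold higher (1.22 to 1.39). UQCRC2, a core protein, had 3490 and 4457 reads (189 and 227 TPM) and was 1.23-fold higher (1.18 to 1.29). Its partner core protein UQCRC1 had 2495 and 2883 reads (141 and 153 TPM) and was 1.12-fold higher (1.06 to 1.18), and the intervals of the core proteins just failed to overlap.

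The small subunits UQCRH, UQCR11, UQCR10 and UQCRQ sat between 1.14-fold and 1.16-fold. UQCRH, the acidic hinge protein, was the most abundant gene of the complex at 728 and 823 TPM. UQCRQ was at 78.5 and 86.8 TPM and UQCR10 at 75.2 and 82.9 TPM. UQCRB was low per length, at 19.9 and 26.4 TPM, because the authors' scaling gave it 60.1 reads per TPM, where the complex as a whole had a median of 14.6. UQCRHL, an intronless near-copy of UQCRH, had 107 and 98 reads and a log2 ratio of -0.18 (-0.59 to 0.23). This interval included both no difference and the log2 ratio of UQCRH (0.21). UQCRHL shares reads with UQCRH, and the sum of the pair was 1.15-fold higher in floating cells.

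In complex IV, cytochrome c oxidase, the catalytic core is encoded by mitochondrial DNA and the genes described here encode its accessory shell. The ratios were the most even of the complexes by their SD. COX7C, the most abundant, was at 1306 TPM (adherent) and 1421 TPM (floating) and 1.11-fold higher (1.06 to 1.16). COX7B (615 and 697 TPM, 1.16-fold, 1.09 to 1.23), COX6C (126 and 141 TPM, 1.15-fold, 1.06 to 1.25) and COX8A (566 and 626 TPM, 1.13-fold, 1.07 to 1.198) had the highest ratios. COX4I1, the subunit on which ATP regulates the enzyme, was at 678 and 729 TPM and 1.104-fold higher (1.06 to 1.15). COX5B (417 and 423 TPM) had a log2 ratio of 0.05 (-0.05 to 0.16), and its interval included no difference.

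COX6A1 went the other way. It had 3942 reads in adherent and 3732 in floating cells (862 and 770 TPM), a floating level 1.09-fold lower (1.045 to 1.14). It encodes the ubiquitous form of subunit 6A, whose heart and muscle form, COX6A2, had 0 reads. The tissue forms COX4I2 (lung and hypoxia), COX7A1 (muscle) and COX8C (testis) also had 0 reads in both libraries, so levels of up to 0.114 CPM (adherent) and 0.111 CPM (floating) would have escaped detection. COX6B2 (21 and 12 reads) and COX7B2 (11 and 10 reads) were under the count minimum, so in both growth forms the reads of these 6 isoform pairs came almost entirely from the ubiquitous gene. COX7A2L, which is a supercomplex assembly factor rather than a fixed subunit, was at 359 and 360 TPM, with a log2 ratio of 0.04 (-0.02 to 0.11).

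Complex V showed both directions. In the catalytic F1 head, ATP5B, the beta subunit that makes ATP, was the most abundant member of all, with 31033 reads in adherent and 35571 in floating cells (1509 and 1622 TPM) and a 1.11-fold excess (1.09 to 1.125). Its partner ATP5A1 was at 418 and 435 TPM and 1.07-fold higher (1.04 to 1.103). ATP5E, the epsilon subunit of the rotor stalk, was at 1089 and 1301 TPM and 1.22-fold higher (1.16 to 1.28). ATP5C1, the gamma subunit that turns inside the head, had 2847 and 2787 reads (242 and 222 TPM) and was 1.06-fold lower (1.003 to 1.11). ATP5D, the delta subunit beside it, was at 51.1 and 59.6 TPM with a log2 ratio of 0.20 (-0.0005 to 0.40). Of the 3 central-stalk genes, ATP5C1 thus had the ratio below 0 and ATP5E the ratio called higher.

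The 4 genes of the peripheral stalk, which holds the head still, all had intervals above no difference. ATP5F1, its subunit b, was at 87.6 and 100.1 TPM and 1.18-fold higher (1.11 to 1.25), and ATP5J, ATP5O and ATP5H lay between 1.08-fold and 1.16-fold. Among the small membrane subunits ATP5I (subunit e) had 1013 and 1343 reads (520 and 659 TPM) and the highest ratio of the complex, 1.28-fold (1.18 to 1.39). ATP5J2 and ATP5L were 1.102-fold (1.04 to 1.17) and 1.06-fold (0.991 to 1.13). ATP5L2, a copy of ATP5L, had 0 reads.

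The 3 genes for the c subunit, which forms the rotor ring and has the same mature protein from each gene, differed in direction. ATP5G1 had 2033 reads in adherent and 2477 in floating cells (437 and 502 TPM) and was 1.18-fold higher (1.11 to 1.25). ATP5G2 had 4321 and 4206 reads (508 and 465 TPM) and was 1.06-fold lower (1.02 to 1.11). ATP5G3 had 2677 and 2849 reads (87.0 and 87.1 TPM) with a log2 ratio of 0.04 (-0.04 to 0.12). Of the TPM summed over the 3 genes, ATP5G1 held 42.3% in adherent and 47.6% in floating cells and ATP5G2 held 49.2% and 44.1%, while the sum itself was 1033 and 1055 TPM. In TPM the gene with the largest share was therefore ATP5G2 in adherent and ATP5G1 in floating cells, with a total that differed by 1.02-fold. This order depends on the authors' length scaling (4.79 reads per TPM for ATP5G1 and 8.77 for ATP5G2), since by reads ATP5G2 led in both libraries.

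ATP5S and ATP5SL carry the prefix but encode no fixed subunit. ATP5S is a coupling-factor protein, and ATP5SL is an assembly factor for the membrane arm of complex I. ATP5S had 264 and 260 reads (12.9 and 11.9 TPM), and its log2 ratio was -0.07 (-0.32 to 0.18). ATP5SL had 807 and 921 reads (45.6 and 48.2 TPM), and its log2 ratio was 0.14 (0.004 to 0.28). With COX7A2L, the 3 prefix matches that are no subunits had a median log2 ratio of 0.04, against 0.18 for the 76 others.

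**Figure D2:**
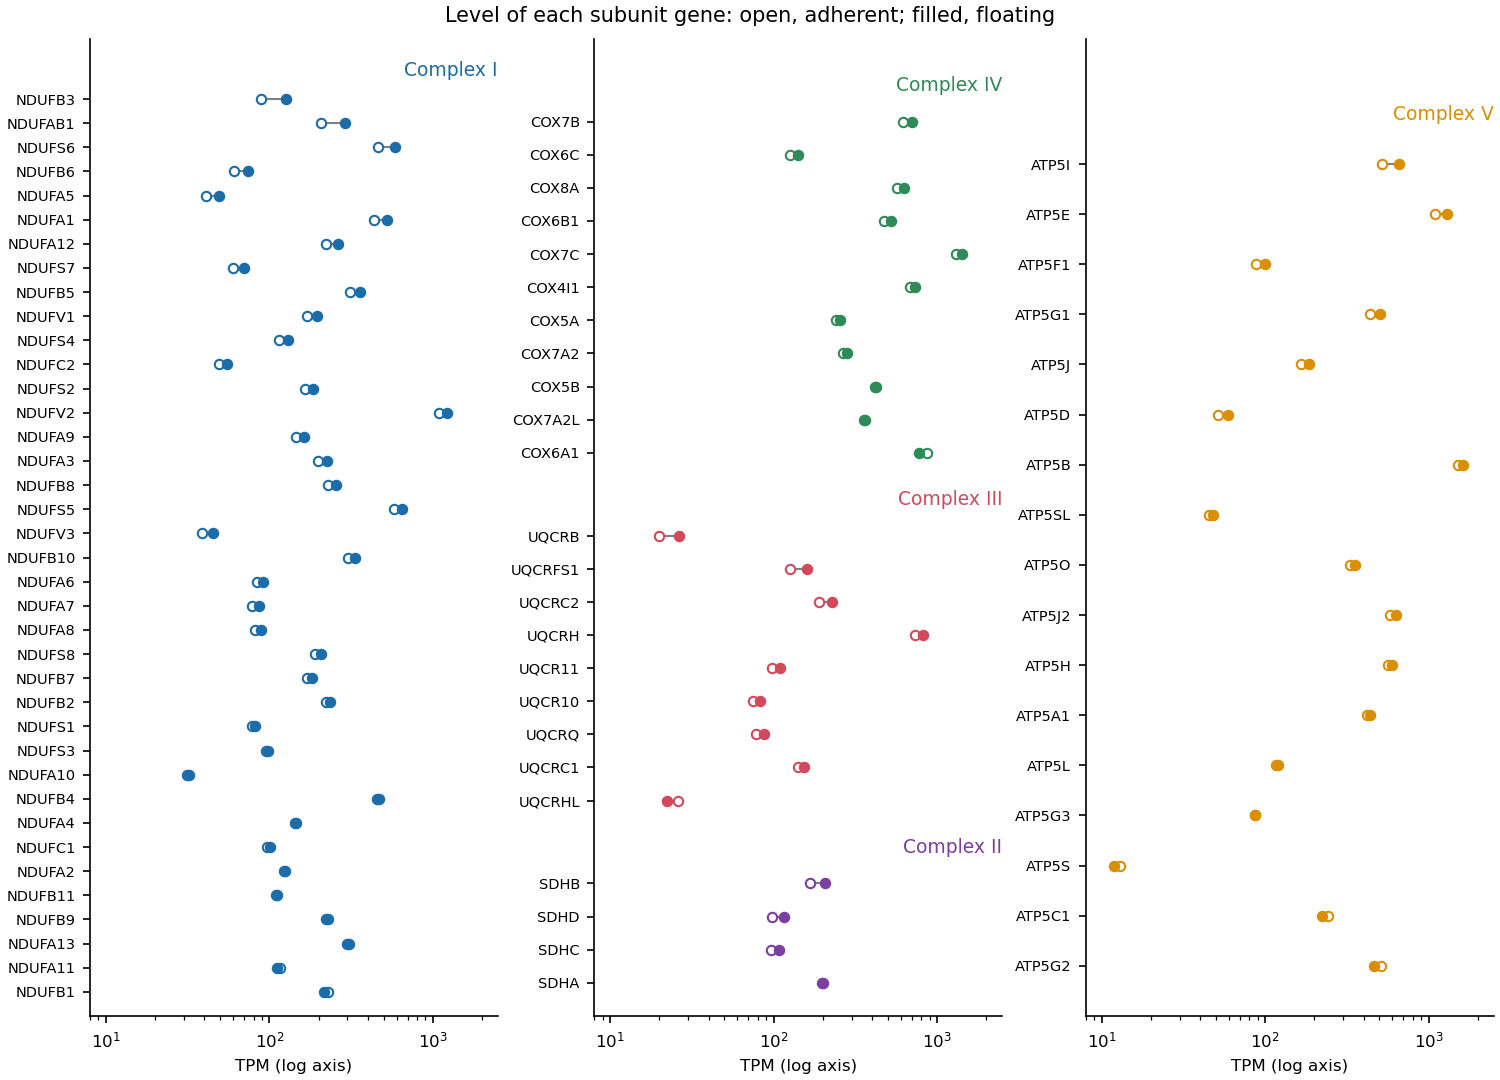
Deposited TPM (x axis, log scale) of each of the 79 compared members in the adherent (open) and the floating library (filled), in the order of the ratios within complexes I to V. Levels ran from 11.9 TPM for ATP5S to 1622 TPM for ATP5B, and the shift between libraries was small beside the spread between the genes of a complex.

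Levels differed far more between genes than between libraries. Members of complex I ran from 31.2 TPM (NDUFA10) to 1228 TPM (NDUFV2), those of complex III from 19.9 to 823 TPM, and those of complex IV from 126 to 1421 TPM. Summed over the members, complex I held 7812 TPM (adherent) and 8701 TPM (floating), complex II 559 and 630 TPM, complex III 1481 and 1689 TPM, complex IV 5914 and 6225 TPM and complex V 6763 and 7398 TPM. All members together made up 2.25% of the TPM of the adherent and 2.46% of that of the floating library. The ratio of these sums was 1.14 for complex III, 1.13 for II, 1.11 for I, 1.09 for V and 1.05 for IV.

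The transcripts of these genes are short, and in these libraries short genes as a group leaned to the floating side by their median. Reads per TPM, which are proportional to the effective length that the authors' counting used, had a median of 7.98 over the members and 35.9 over all compared genes. When the compared genes were divided into 10 equal bands of this length, the median log2 ratio of all genes went from 0.11 in the shortest to -0.06 in the longest band. The deposited TPM kept this trend, with medians of 0.08 and -0.10 in the same bands. Reads per TPM differed between libraries by nearly the same factor in the shortest and the longest band, 0.005 apart on the log2 scale, so length scaling could not remove the trend.

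Set beside genes of like length, the excess was smaller. The shortest band held 55 of the 79 members, 11 of which (20%) were called higher, against 22.0% of the 1258 other genes in it. The medians in this band were 0.16 for the members and 0.11 for the others. In the next band 3 of 11 members were called higher, against 15.9% of the others, and the medians were 0.20 and 0.05. Over all bands, 63 of 79 members lay above the median of the other genes of their band. The share of members called at 1.2-fold was thus near that of the other genes in the shortest band and above it in the next, where it rests on 3 genes, and the members' median was higher in both.

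**Figure D3:**
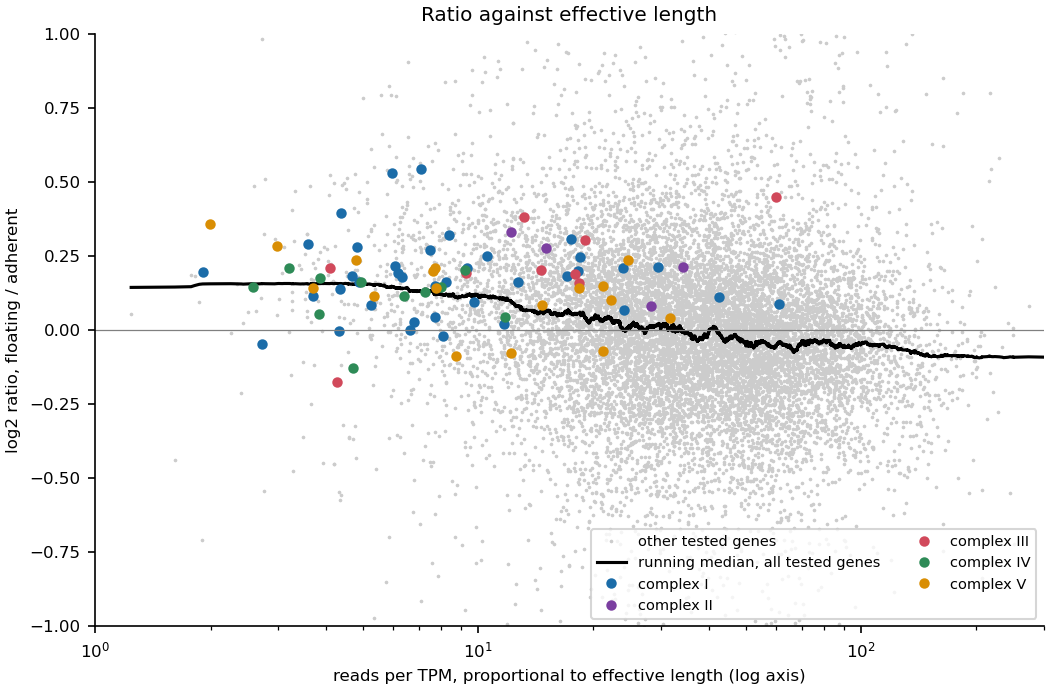
Log2 ratio of floating over adherent (y axis) against reads per TPM (x axis, log scale), which is proportional to effective length, for all compared genes (grey; genes beyond the axis limits are not drawn) and for the members by complex. The black line is the running median of all compared genes; the members, with a median of 7.98 reads per TPM, lie where this line is above 0.

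With the running median over length subtracted from every gene, the median log2 ratio of the members was 0.07, and 56 of 79 lay above 0. By complex it was 0.21 in II, 0.13 in III, 0.07 in I, 0.06 in V and -0.009 in IV. By the 1.2-fold rule 5 members were then higher, against 11.3% of all genes, and 1 was lower, against 11.9%. The 5 were NDUFB3 (0.41), NDUFAB1 (0.38), UQCRB (0.51), UQCRFS1 (0.32) and UQCRC2 (0.26), and all 5 were also called without the correction. The lower one was COX6A1 (-0.28). All 11 compared genes of complex IV lay in the shortest band, against 1 of 4 in complex II and 4 of 9 in complex III, so the order of the complexes cannot be told apart from their lengths without such a correction.

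**Figure D4:**
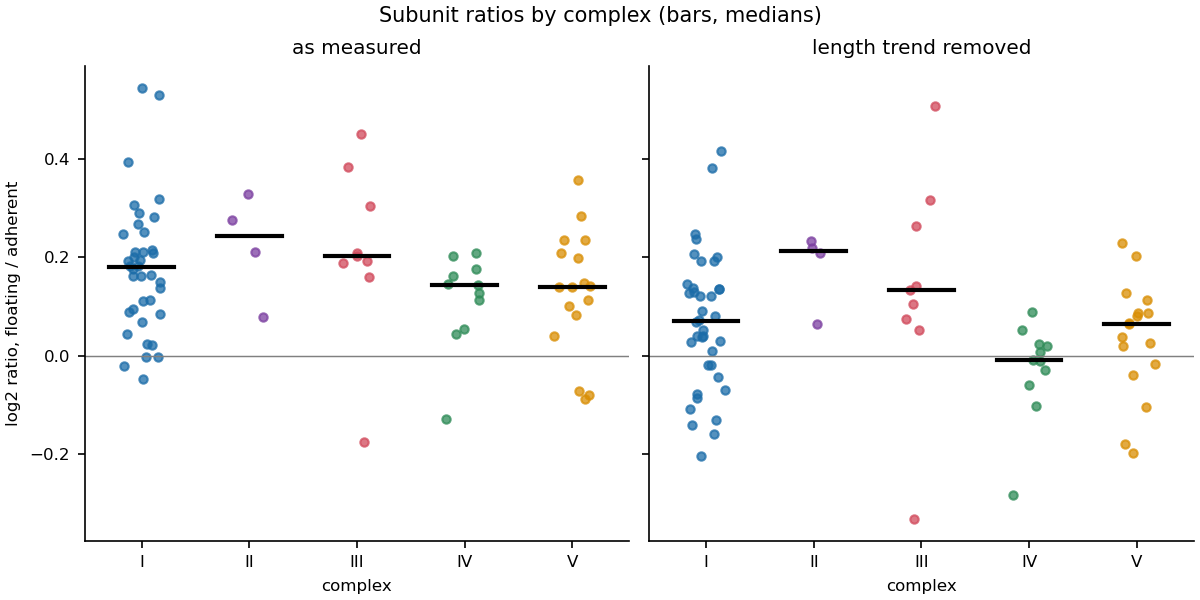
Log2 ratio of floating over adherent (y axis) of the compared members of complexes I to V (x axis), as measured (left) and after the running median over effective length was subtracted (right). Points are genes with random horizontal offsets and bars are medians, which went from 0.24 to 0.21 in complex II and from 0.14 to -0.009 in complex IV.

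Pooled over the members, and within complex I, the ratio did not follow length, while within complex V shorter genes had the higher ratios. Spearman's rho between log2 ratio and reads per TPM was 0.01 over the 79 members, -0.18 over 13126 compared genes with a length, 0.01 over the 38 of complex I and -0.45 over the 17 of complex V. Genes are not independent replicates, and both axes use the same reads, so these values are descriptions. Against transcript GC content rho was -0.03 over the members.

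Genes that work beside the subunits were described from lists, to be read against the 12.1% of all genes called higher. Assembly factors lay above 0 in 15 of 15 cases for complex I, 3 of 4 for complex II, 6 of 6 for complex III, 22 of 25 for complex IV and 3 of 3 for complex V, with median log2 ratios of 0.15, 0.18, 0.26, 0.15 and 0.07. Those called higher were 3, 1, 3, 5 and 0, and none was called lower. For complex I, NDUFAF2 had 357 and 526 reads (log2 0.51, 0.31 to 0.71) and NDUFAF4 had 422 and 579 reads (0.41, 0.22 to 0.59). For complex II, C6orf57 (SDHAF4) had 86 and 128 reads (0.52, 0.12 to 0.94). For complex III, MNF1 (UQCC2), which acts in cytochrome b synthesis, had 573 and 866 reads (0.55, 0.39 to 0.70), and C11orf83 (UQCC3) had 275 and 373 reads (0.39, 0.16 to 0.62). For complex IV, COX17, the copper chaperone, had 890 and 1311 reads (0.51, 0.39 to 0.63), and COA4 had 986 and 1369 reads (0.42, 0.31 to 0.54). These named factors were the called genes farthest from 0 in their lists, and their ratios exceeded those of most subunits of their complexes. By median the assembly factors lay below the subunits for complexes I (0.15 against 0.18), II (0.18 against 0.24) and V (0.07 against 0.14). They lay above the subunits for complexes III (0.26 against 0.20) and IV (0.149 against 0.143). In complex I the assembly factors were longer, with a median of 18.1 reads per TPM against 7.61. With the length trend removed, assembly factors lay above the subunits for complexes I (0.15 against 0.07), III (0.25 against 0.13) and IV (0.07 against -0.009). They lay below the subunits for complexes II (0.14 against 0.21) and V (0.04 against 0.06), and no difference was tested.

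**Figure D5:**
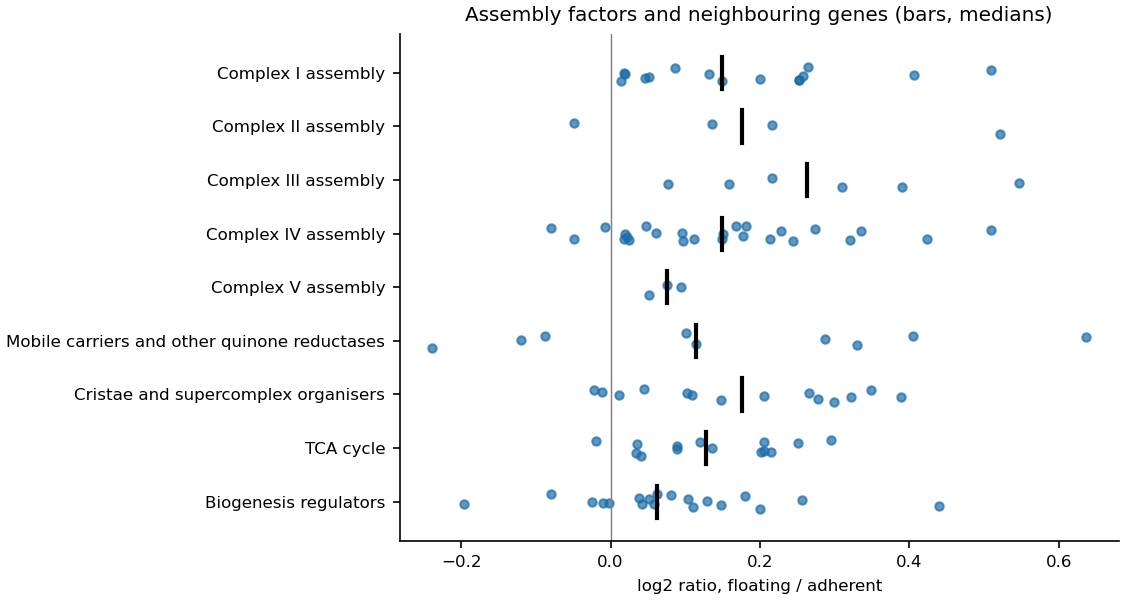
Log2 ratio of floating over adherent (x axis) of the compared genes in 9 lists beside the subunits (y axis). Points are genes with random vertical offsets and bars are medians, which ran from 0.06 for biogenesis regulators to 0.26 for complex III assembly.

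Among the 9 electron carriers and quinone reductases, 3 were called higher, with a median log2 ratio of 0.11. CYCS, cytochrome c itself, which carries electrons from complex III to complex IV, had 4784 reads in adherent and 7695 in floating cells (71.3 and 107 TPM) and a log2 ratio of 0.64 (0.58 to 0.69), above that of every subunit described here. DHODH, a pyrimidine synthesis enzyme that reduces ubiquinone, had 266 and 346 reads (0.33, 0.10 to 0.57). Of the 4 subunits and regulators that the prefixes miss, USMG5, a small subunit of ATP synthase, was called higher (653 and 792 TPM, 0.32, 0.23 to 0.42), and the median was 0.16. Of 14 genes that organise cristae and supercomplexes 6 were called higher (median 0.18), among them MINOS1 (0.39, 0.25 to 0.53) and CHCHD6 (0.35, 0.07 to 0.63), and this list also holds COX7A2L. Of 14 genes of the citric acid cycle 1 was called higher (median 0.13), the succinyl-CoA ligase SUCLG1 (0.29, 0.20 to 0.39). Of 19 regulators of mitochondrial biogenesis 1 was called higher (median 0.06), the coactivator PPARGC1B, with 520 and 730 reads (0.44, 0.28 to 0.61). None of these genes was called lower at 1.2-fold. GPD2, the mitochondrial glycerol-3-phosphate dehydrogenase that reduces ubiquinone, came nearest among the carriers, with 4963 and 4352 reads (log2 -0.24, -0.30 to -0.18), and was named after its value was seen.

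Other families of many small proteins bracketed the subunits. The median log2 ratio was 0.24 for the 76 mitochondrial ribosomal proteins, 0.24 for the 37 compared proteasome subunits and 0.06 for the 83 compared cytosolic ribosomal proteins. Called higher were 34, 11 and 10 of them, to be read against 12.1% of all genes. The share was above that of all genes for the mitochondrial ribosomal proteins and the proteasome subunits. For the cytosolic ribosomal proteins it was near that of all genes. By median length, both ribosomal families fell in the shortest band (medians of 12.6 reads per TPM, mitochondrial, and 6.54, cytosolic). In that band 22.0% of genes outside the respiratory set were called higher. With the length trend removed the medians of the 3 families were 0.18, 0.20 and -0.06, beside 0.07 for the respiratory subunits. No test of these differences was possible with 1 library per growth form.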

How the data were processed

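Poly(A) RNA of A427 cells was sequenced in 2 libraries, 1 adherent and 1 floating. FastQC 0.11.1 was among the tools, with STAR 2.5.3a and RSEM 1.3.3, and the build was hg19, per the submitters' processing notes. The sources used here do not state the gene annotation, settings or strandedness. Deposited by the authors were estimated counts per gene symbol without normalization. Values with decimals make up 6.38% (adherent) and 6.55% (floating). The authors also deposited TPM, scaled by effective length to a sum of 1000000.

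Counts were rounded to whole numbers and scaled with the TMM method of edgeR 4.0.16 (R 4.3.3). The log2 ratio used a prior count of 0.5, and intervals are exact Clopper-Pearson intervals of the split of a gene's reads. Reads carry no molecular identifiers, so intervals and the limit of 3 reads for a count of 0 cover counting error only. With 1 library per group no SD between cultures and no test were possible, and DESeq2 1.42.0 was used for its size factors alone. The trend over reads per TPM was a running median over 501 genes. Older symbols were matched through RefSeq (GRCh38.p14), where all 87 members were found, and GC content came from the longest GENCODE transcript. The calculation was tested on simulated data. Python 3.11.15, numpy 2.4.6, pandas 2.3.3, scipy 1.17.1 and matplotlib 3.10.9 were used.

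Full values are given for the 3 highest and 3 lowest ratios per complex among genes of at least 10 CPM, the 2 of highest TPM per complex, tissue isoform pairs and up to 2 called genes per direction in each other list. Other members were named after their values were seen. The members, lists and thresholds were chosen with earlier results of these data known. The alternatives were other scalings, TPM + 0.1, prior counts, filters, thresholds, summaries, memberships and the removal of a length trend. Removal of a GC or level trend was added after the data were seen.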

Additional observations from a re-analysis of the deposited data

How the results depend on the processing

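The medians of all members and of each complex kept their direction under other scalings, TPM, no filter on low counts, a filter at 5 CPM, a larger prior count (5), whole-number estimates, the other membership, means, summed reads and removal of a GC or level trend, each within the typical counting interval of a member. Removal of the length trend moved the median over all members to 0.065 and that of complex IV to -0.0090, below 0. It moved the count of members called higher from 15 to 5 and that of members called lower from 0 to 1. It also turned NDUFB4 (-0.069), COX7C (-0.010), COX5A (-0.0090), COX7A2 (-0.028), ATP5J2 (-0.016) and ATP5H (-0.038) below 0. On TPM, with no counting interval required, 8 members passed 1.2-fold upward. Thresholds of 1.1-fold and 1.5-fold called 48 and 0 members higher, and at 1.1-fold 21.2% of all genes were called in each direction.

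With NDUFA4 in complex IV and non-subunits left out, the summed TPM in adherent and floating cells was 7669 and 8556 in complex I, 5698 and 6011 in IV, and 6705 and 7338 in V. With whole-number estimates alone it was 362 and 428 in complex II, 707 and 817 in III, and 5094 and 5468 in V. No paired analysis was possible because each growth form has 1 library and the labels give no replicate numbers, and no replicate could be left out. Differences between cultures cannot be told apart from differences between growth forms.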
